A study of Mus musculus with 2 samples.

Results

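The genes described here code for the B cell antigen receptor and for secreted antibody. Members were the 7 symbols Ighm, Ighd, Igkc, Iglc2, Cd79a, Cd79b and Jchain, and a member was kept where the deposited gene list held exactly that symbol. Of the 7 members, 3 had a row among the 12638 genes: Cd79a, Cd79b and Jchain. The heavy chain genes Ighm and Ighd and the light chain genes Igkc and Iglc2 matched no row and are not analysed here. None of 10 further immunoglobulin genes looked for (Ighg1, Ighg2b, Ighg2c, Ighg3, Igha, Ighe, Iglc1, Iglc3, Iglc4 and Igll1) had a row either, so light chain use and the balance of Ighm and Ighd could not be described.

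The data were single-cell 5′ RNA sequencing of 12458 CD45-positive cells, with dendritic cells (DC) enriched in the sort, from C57Bl6 mice bearing MC38-OVAdim tumours under the skin; MC38 is a mouse colon carcinoma line. In 2 mice Havcr2, the gene of the inhibitory receptor TIM-3, had been knocked out (KO1 and KO2), and 2 mice with Havcr2 fl/fl alleles were the controls (WT1 and WT2); the labels name no Cre driver and give no age. Each mouse gave its tumour, a lymph node draining it (dLN) and a non-draining node (ndLN), which makes 12 samples, and each of 2 droplet channels held 1 KO and 1 WT mouse. Mice and not cells are therefore the replicates, with 2 per genotype. In tests of gene levels between genotypes, the spread was pooled over the genotype by tissue groups of a cell class. There the tissues of a mouse counted as independent. Tests between tissues measure differences within mice.

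Samples held 473 to 1691 cells and 3031124 to 28498154 unique molecular identifiers (UMIs), with a median per cell of 15191 in tumours, 4520 in draining and 4633 in non-draining nodes. The 2 channels shared 65 cell barcodes. Havcr2, taken as a check of the labels, averaged 0.259 and 0.150 UMIs per 10000 in KO1 and KO2 tumours, against 0.737 and 0.839 in WT1 and WT2 tumours. In the nodes it lay between 0.000880 and 0.00867 in KO mice, against 0.0453 to 0.0982 in WT mice. B-like cells held 2 Havcr2 UMIs in 2353 cells. The sort and the enrichment of DC set which cells were seen, and shares of cells below are shares of what was sorted.

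A B cell recognises antigen with a surface immunoglobulin that has almost no cytoplasmic tail. Signals pass through CD79A and CD79B, a pair of transmembrane proteins bound to it, whose tails carry tyrosine motifs that are phosphorylated by Src family kinases and recruit the kinase Syk. When a B cell turns into an antibody-secreting plasma cell it makes large amounts of immunoglobulin and of the J chain, a small protein that links antibody units into pentameric IgM and dimeric IgA; expression of the surface receptor is then reduced in many plasma cells.

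In mm10, and by the GENCODE M21 annotation of that build, Cd79a (ENSMUSG00000003379.7) covers bases 24897381 to 24902197 of the plus strand of chromosome 7. Cd79b (ENSMUSG00000040592.11) covers bases 106311341 to 106314762 of the minus strand of chromosome 11. Jchain (ENSMUSG00000067149.6) covers bases 88519809 to 88527891 of the minus strand of chromosome 5. All 3 are annotated as protein-coding genes.

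The sequences before the start of Cd79a and Jchain are shown because these genes had unlike patterns in the cells described below. RefSeq promoter windows of GRCm38.p6, the same assembly as mm10, were matched for Cd79a and Jchain by symbol, and only bases outside the GENCODE gene are printed, 5′ to 3′ on the strand of the gene: chr7:24897247-24897380 on the plus strand and chr5:88527898-88528147 on the minus strand. Capitals mark a CAGGTG motif, an E box of the kind bound by E2A proteins.
Cd79a: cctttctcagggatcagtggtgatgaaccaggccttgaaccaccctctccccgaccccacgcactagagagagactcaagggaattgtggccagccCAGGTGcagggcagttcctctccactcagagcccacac
Jchain: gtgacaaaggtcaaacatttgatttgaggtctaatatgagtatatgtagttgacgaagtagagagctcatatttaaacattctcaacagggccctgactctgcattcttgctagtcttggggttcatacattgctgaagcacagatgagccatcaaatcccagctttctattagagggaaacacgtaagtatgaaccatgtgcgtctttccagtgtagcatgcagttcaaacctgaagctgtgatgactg

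Both strands of the 250 bases before each RefSeq start were searched for CAGGTG, for AGGAAGTG (an Ets family motif), for ATGCAAAT (the octamer) and for the palindromic EBF1 motif. In Cd79a, CAGGTG began at position -154 from the RefSeq start and AGGAAGTG at position -55, beyond the printed bases. CAGGTG was present in 17.2% and AGGAAGTG in 3.14% of 32851 promoter windows of the same length. The Jchain window held no exact match to any of the 4 motifs. Exact matches to the octamer and to the EBF1 palindrome, in 1.60% and 0.779% of all windows, were in neither gene's. EBF1 sites that depart from the palindrome were not searched for, so neither window is shown to lack such a site. A match of letters is a description and not a binding site.

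Cells were clustered without the members, and clusters are called "like" a cell type from markers other than the members. Of 28 clusters, clusters 0 and 6 were B-like, with 2353 cells in all. In each of them 12 of 13 B cell markers were over 2-fold higher than the mean over all cells, those of the cluster included. In B-like cells 90.3% had a UMI of Ms4a1 (CD20) and 96.8% of Ebf1, the factor that sets the B cell fate. The T cell gene Cd3e had a UMI in 0.722% of them. A further 118 cells formed cluster 19, whose leading genes included Jchain, Slpi, Mzb1, Eaf2 and Rgs13, which is described apart. Cluster 26, with 45 cells, held B cell and T cell markers together, Cd3e in 97.8% and Ms4a1 in 95.6% of its cells, and was set aside after its values were seen. The other 9942 cells are called non-B.

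Nearly all B-like cells carried both genes of the signalling pair. Of the 2353 B-like cells, 2274 (96.6%) had UMIs of both genes, 67 had Cd79a UMIs alone, 7 had Cd79b UMIs alone and 5 had neither. The median B-like cell held 13 UMIs of Cd79a, with a 10th percentile of 6 and a 90th of 22, and 5 UMIs of Cd79b, with 2 and 10. B-like cells of the nodes averaged 43.0 Cd79a UMIs per 10000 UMIs of the cell in 2302 cells, and 16.97 of Cd79b. Here and below the UMIs of a cell are those of the 12638 deposited genes. These include none of the heavy and light chain genes looked for, so all levels per 10000 leave those out of the base.

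In B-like cells of dLN, Cd79a averaged 41.9 UMIs per 10000 in KO1 and 45.6 in KO2, against 41.2 in both WT1 and WT2. On this scale the genotypes did not overlap, though KO1 lay within 1 UMI per 10000 of both WT mice. On the log2 scale tested below they did overlap, with KO1 at 5.27 and WT2 at 5.28. Cd79b averaged 16.7 in KO1 and 19.5 in KO2, against 16.4 in WT1 and 15.4 in WT2. As group means, Cd79a had 43.7 ± 2.59 in KO and 41.2 ± 0.0336 in WT dLN (SD, n = 2 mice each). Cd79b had 18.1 ± 1.94 in KO and 15.9 ± 0.713 in WT dLN (SD, n = 2 mice each).

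In B-like cells of ndLN, Cd79a averaged 43.5 in KO1 and 42.1 in KO2, against 41.2 in WT1 and 42.3 in WT2, so the genotypes overlapped. Cd79b averaged 16.4 in KO1 and 15.2 in KO2, against 17.8 in WT1 and 13.7 in WT2, where the WT mice were both the highest and the lowest.

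These values were compared as the mean over a sample's cells of log2(1 + UMIs per 10000), with limma fitted over all genes and Benjamini-Hochberg adjustment at 0.05. A sample entered with at least 20 cells of a class, and a gene was tested with a UMI in at least 5% of the class's cells. KO minus WT in dLN was 0.09 for Cd79a (SE 0.0892, adjusted p = 1.00) and 0.15 for Cd79b (SE 0.152, adjusted p = 1.00). In that comparison 0.0176% of 5673 genes passed, which was 1 gene, Jun, an early response transcription factor, named after its value was seen (difference 0.50, SE 0.0889, adjusted p = 0.0405). In ndLN, KO minus WT was 0.07 for Cd79a (SE 0.0892, adjusted p = 0.937) and 0.05 for Cd79b (SE 0.152, adjusted p = 0.973). There 0% of genes passed by limma, with 364 at an unadjusted p under 0.05, and 0 passed by limma-voom on summed UMIs.

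Within the channels, KO minus WT for Cd79b of B-like cells was -0.06 in channel 1 and 0.35 in channel 2 for dLN, and -0.14 and 0.25 for ndLN. On this log2 scale the direction for Cd79b thus turned between the pairs of mice in both nodes; on the scale of mean UMIs per 10000 it turned in ndLN alone, since KO1 was above WT1 in dLN there. For Cd79a the within-channel differences were 0.04 and 0.14 in dLN and 0.12 and 0.02 in ndLN, all above 0. The KO minus WT difference was not shown to differ between dLN and ndLN: the difference of differences was 0.02 for Cd79a (adjusted p = 0.996) and 0.09 for Cd79b (adjusted p = 0.996), by limma. That fit took the nodes of a mouse as independent, and with the mouse as a term the adjusted p was 0.989 and 0.983.

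Between the nodes of the same mice, B-like cells had 42.5 ± 2.08 Cd79a UMIs per 10000 in dLN and 42.3 ± 0.968 in ndLN (SD, n = 4 mice each). Cd79b had 16.999 ± 1.75 in dLN and 15.8 ± 1.74 in ndLN (SD, n = 4 mice each). With the mouse as a term, dLN minus ndLN was 0.01 for Cd79a (SE 0.0506, adjusted p = 0.991) and 0.13 for Cd79b (SE 0.0848, adjusted p = 0.969), by limma. The Cd79b differences in single mice were 0.00 in KO1, 0.35 in KO2, -0.08 in WT1 and 0.25 in WT2. In this comparison 0% of 5673 genes passed by limma, with 299 at an unadjusted p under 0.05, and 3 passed by limma-voom.

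Tumours held 51 B-like cells, with 20 or more in 1 sample only, so no genotype test was made there. Cd79a averaged 44.1 UMIs per 10000 in KO1 (19 cells) and 40.7 in KO2 (8 cells), against 45.8 in WT1 (21 cells) and 37.8 in WT2 (3 cells). Cd79b averaged 15.4 in KO1 and 14.3 in KO2, against 17.4 in WT1 and 14.7 in WT2. Over all 51 cells the pair stood at 43.9 and 15.98 UMIs per 10000 in tumours, beside 43.0 and 16.97 in the nodes.

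**Figure D1:**
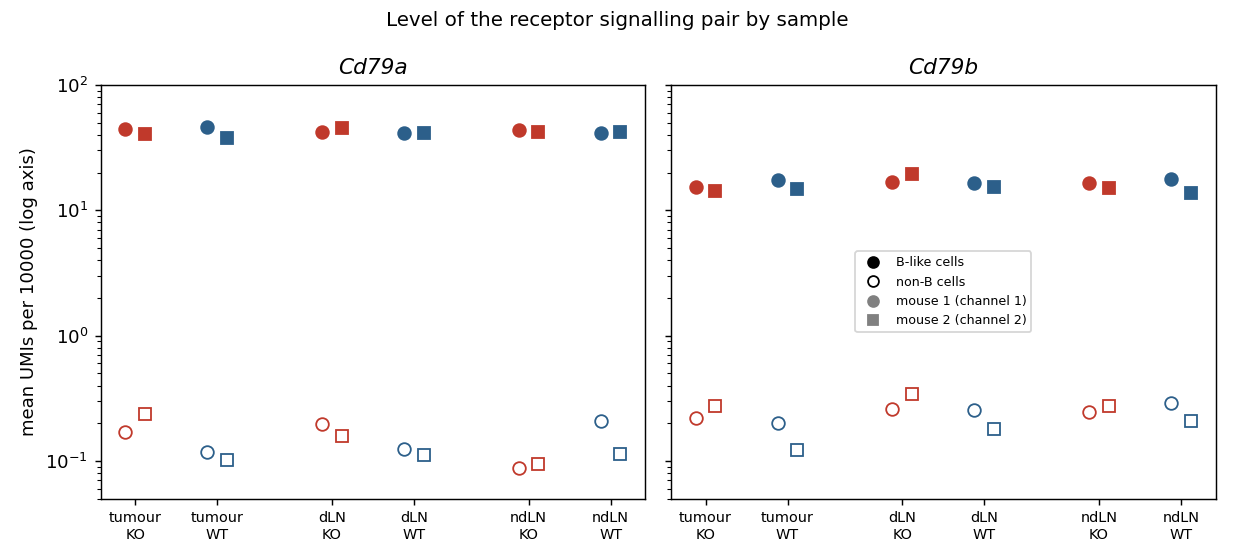
Mean UMIs per 10000 of Cd79a and Cd79b in each of the 12 samples on a log axis, with filled points for B-like cells and open points for non-B cells, circles for mouse 1 and squares for mouse 2 of each genotype. B-like means of Cd79a lie between 37.8 and 45.8 and those of Cd79b between 13.7 and 19.5, while non-B means of both genes are at most 0.341.

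Cluster 6 and cluster 0 differed in their Cd79b level in every node sample compared. In samples with at least 20 cells, cluster 6 had 19.9 to 22.8 Cd79b UMIs per 10000 over 7 samples and cluster 0 had 13.3 to 15.4 over 8 samples, with no overlap. For Cd79a the ranges were 42.8 to 47.0 in cluster 6 and 38.2 to 43.7 in cluster 0, which overlapped. Clusters were built from the same cells, so these are descriptions with no test. Ranked against all cells and not against each other, the leading genes of cluster 6 were Tnfrsf13c, the receptor for the survival factor BAFF, Cd79b itself and Fcer2a. Those of cluster 0 were Fcmr, a receptor for IgM, Ebf1 and Cd79a itself. The lists overlapped: Fcer2a was also among the leading genes of cluster 0, and Cd79a among those of cluster 6.

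Cluster 6 made up 37.3% of B-like cells in KO1 dLN and 57.0% in KO2 dLN, against 27.7% in WT1 dLN and 20.3% in WT2 dLN. Its share was 19.8% in KO1 ndLN and 15.1% in KO2 ndLN, against 39.3% in WT1 ndLN and 8.04% in WT2 ndLN. The sample with the highest Cd79b level, KO2 dLN, also had the highest share of cluster 6, and it held 409 of the 801 cells of that cluster. The part of the cluster shares in the Cd79b differences was not tested. Within cluster 6 alone, where samples entered with at least 15 cells, KO minus WT for Cd79b in dLN was -0.09 (limma, adjusted p = 1.00), and within cluster 0 alone it was 0.04 (adjusted p = 1.00), against 0.15 over both.

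The other genes of the receptor's signalling pathway were followed as a list of 22, from co-receptors (Cd81, Cr2) and kinases (Lyn, Syk, Btk) to adaptors (Blnk) and inhibitors (Cd22, Fcgr2b, Ptpn6). All 22 were tested in B-like cells and 0 passed in any of the 3 comparisons by limma. KO minus WT was above 0 for 17 of 22 in dLN, with a median of 0.05, and for 10 of 22 in ndLN, with a median of -0.01; over all genes tested the medians were -0.00222 and -0.00344. For dLN minus ndLN, 13 of 22 were above 0, with a median of 0.02 beside 0.000514 over all genes. Of 13 B cell transcription factors 12 were tested, and 0 passed in any of the same comparisons. Of 13 B cell markers, 0 passed in any of them, and 9, 9 and 11 were above 0.

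B-like cells were a larger share of the sorted cells in KO than in WT dLN. They made up 31.6% of cells in KO1 dLN (95% exact Clopper-Pearson interval 28.8 to 34.6%) and 49.3% in KO2 dLN (46.7 to 51.9%), against 19.6% in WT1 dLN (17.4 to 22.1%) and 23.3% in WT2 dLN (20.8 to 25.96%). These intervals, as all counting intervals here, cover counting error only. The genotypes did not overlap, and the means were 40.5% in KO and 21.5% in WT. By an exact two-sided permutation test of mice the p was 0.33, the smallest that 2 against 2 mice can give, so no difference could pass at this size.

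In ndLN, B-like cells made up 20.2% in KO1 and 34.5% in KO2, against 18.6% in WT1 and 20.7% in WT2 (exact permutation p = 0.667). KO1 lay between the WT mice, and KO2 stood above all. In tumours the shares were 1.40% in KO1 and 1.69% in KO2, against 1.24% in WT1 and 0.299% in WT2 (exact permutation p = 0.33). Because the sort enriched DC, these shares are not those of the tissue.

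Averaged over all cells of a sample, the pair ranked the dLN of the 4 mice in the same order as that share. In dLN the mean of log2(1 + UMIs per 10000) of Cd79a was 1.75 in KO1 and 2.90 in KO2, against 1.14 in WT1 and 1.32 in WT2. That of Cd79b was 1.37 in KO1 and 2.32 in KO2, against 0.97 in WT1 and 1.01 in WT2. Both genes were higher in both KO mice, and KO2 stood furthest from the rest. In such a mean over all cells, more B-like cells and more RNA per cell cannot be told apart; the share and the level per B-like cell are given above. KO minus WT was 1.10 for Cd79a (SE 0.292, adjusted p = 0.0712) and 0.86 for Cd79b (SE 0.228, adjusted p = 0.0726), by limma, which did not pass.

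With the droplet channel as a term, that is with KO and WT mice paired by channel, the same differences passed (adjusted p = 0.0201 for Cd79a and 0.0324 for Cd79b, by limma). Within the channels, KO minus WT for Cd79a was 0.61 in channel 1 and 1.58 in channel 2, and for Cd79b 0.40 and 1.31. Without KO1 the differences were 1.67 and 1.33 (adjusted p = 4.91e-05 for both), and without KO2 they were 0.52 (adjusted p = 0.0502) and 0.38 (adjusted p = 0.0421). Without WT1 they were 1.01 and 0.84 (adjusted p = 0.403 and 0.377), and without WT2 1.19 and 0.88 (adjusted p = 0.293 and 0.336), by limma, so neither gene passed without either WT mouse. In this comparison 2.64% of 8785 genes passed.

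Other genes of the pathway were also higher in KO dLN over all cells. Of the 22 signalling genes 22 were tested and all were above 0, with a median of 0.21 beside 0.00274 over all genes, and 7 rose by limma: Lyn (0.47, adjusted p = 0.0127), Bank1 (0.45, adjusted p = 0.0414), Prkcb (0.35, adjusted p = 0.0127), Blnk (0.31, adjusted p = 0.0366), Syk (0.28, adjusted p = 0.0168), Btk (0.22, adjusted p = 0.0208) and Plcg2 (0.20, adjusted p = 0.0414). Of 13 transcription factors, 2 rose: Ebf1 (0.76, adjusted p = 0.0487) and Spib (0.26, adjusted p = 0.0241), a factor of B cells and plasmacytoid DC. Of the 7 signalling genes, 4 passed by limma-voom and 4 on summed UMIs, and all 7 kept their direction. Without KO2, 1 of the 7 signalling genes and 1 of the 2 factors passed, and without WT1 or without WT2, 0 of the 7 and 0 of the 2 did. Several of these are also used by myeloid cells. In non-B cells of dLN alone Lyn (0.30, adjusted p = 0.0218), Prkcb (0.16, adjusted p = 0.0179), Syk (0.14, adjusted p = 0.0210) and Spib (0.10, adjusted p = 0.00571) rose too, by limma. These were 3 of 17 signalling genes and 1 of 10 factors tested there, where 4.37% of 9059 genes passed. The part of myeloid cells and of the makeup of non-B cells, given below, in these rises was not tested. Of these signalling genes of non-B cells, 0 passed without KO1, without KO2 or without WT2, and Spib did not pass without KO1 or without KO2.

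In ndLN over all cells Cd79a was 1.13 in KO1 and 1.89 in KO2, against 1.07 in WT1 and 1.20 in WT2, and the genotypes overlapped. KO minus WT was 0.37 for Cd79a (SE 0.292, adjusted p = 0.806) and 0.28 for Cd79b (SE 0.228, adjusted p = 0.816), by limma. Without KO1 both passed, at 0.75 and 0.55 (adjusted p = 0.0253 for both), and without KO2 they were -0.01 and 0.02. In this comparison 0% of genes passed by limma, with 734 at an unadjusted p under 0.05, and 2 passed by limma-voom. In tumours KO minus WT was 0.09 for Cd79a (SE 0.292, adjusted p = 0.999) and 0.08 for Cd79b (SE 0.228, adjusted p = 0.999), beside 0.808% of genes that passed. The KO minus WT difference of Cd79a had a difference of differences, tumour minus dLN, of -1.004 (SE 0.412, adjusted p = 0.337 by limma), which did not pass. With the mouse as a term, added after the values were seen, the SE was 0.265 and the adjusted p 0.0810, which did not pass either. In single mice, tumour minus dLN for Cd79a was -1.58 in KO1 and -2.69 in KO2, against -1.004 in WT1 and -1.25 in WT2. Its dLN minus ndLN was 0.63 in KO1 and 1.02 in KO2, against 0.07 in WT1 and 0.12 in WT2. Both KO mice thus had the larger differences between tissues, and the difference of differences between dLN and ndLN was 0.73 (adjusted p = 1.00 by limma, and 0.552 with the mouse as a term).

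Between tissues of the same mice, the tumour was far poorer in both genes over all cells. Cd79a was 0.17 in KO1 tumour, 0.22 in KO2 tumour, 0.13 in WT1 tumour and 0.07 in WT2 tumour, below every dLN value given above. Tumour minus dLN was -1.63 for Cd79a (SE 0.250, adjusted p = 9.88e-04) and -1.20 for Cd79b (SE 0.198, adjusted p = 0.00140), by limma, and both fell in 4 of 4 mice. With 71.7% of genes passing in this comparison, a pass there sets the members little apart. The signalling list split: 8 of its 22 genes rose and 10 fell. Those that rose, Fcgr2b (1.98), Cd81 (1.12), Lyn (0.94), Cd72 (0.79), Ptpn6 (0.38), Pik3ap1 (0.35), Vav1 (0.34) and Plcg2 (0.17), include genes that macrophages also use. Those that fell included Bank1 (-0.63), Blk (-0.57), Prkcb (-0.45), Cd22 (-0.34), Cr2 (-0.25), Blnk (-0.23), Malt1 (-0.12) and Dapp1 (-0.08), and Dapp1 was above 0 with a pseudocount of 0.1 (0.07, adjusted p = 0.286 by limma).

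Of the transcription factors, 8 fell in tumour against dLN: Ebf1 (-1.11), Foxo1 (-0.78), Ikzf3 (-0.51), Bach2 (-0.41), Spib (-0.41), Pou2af1 (-0.28), Pax5 (-0.24) and Irf4 (-0.14). Those that rose were Xbp1 (0.81), Irf8 (0.72) and Prdm1 (0.12). Irf8, used by B cells, DC and macrophages, turned direction with the scaling: it fell by limma-voom (-0.51, adjusted p = 0.00383) and with log2 of the summed UMIs (-0.43, adjusted p = 0.0119, limma). All 6 macrophage markers rose in tumour, with a median of 3.28, which moved with these differences; their part in them was not tested. Between dLN and ndLN over all cells, Cd79a was 0.46 higher in dLN (SE 0.135, adjusted p = 0.748) and Cd79b 0.37 higher (SE 0.112, adjusted p = 0.748), by limma, with the same direction in 4 of 4 mice and no pass. In that comparison 0% of genes passed by limma, with 566 at an unadjusted p under 0.05, and 0 passed by limma-voom.

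**Figure D2:**
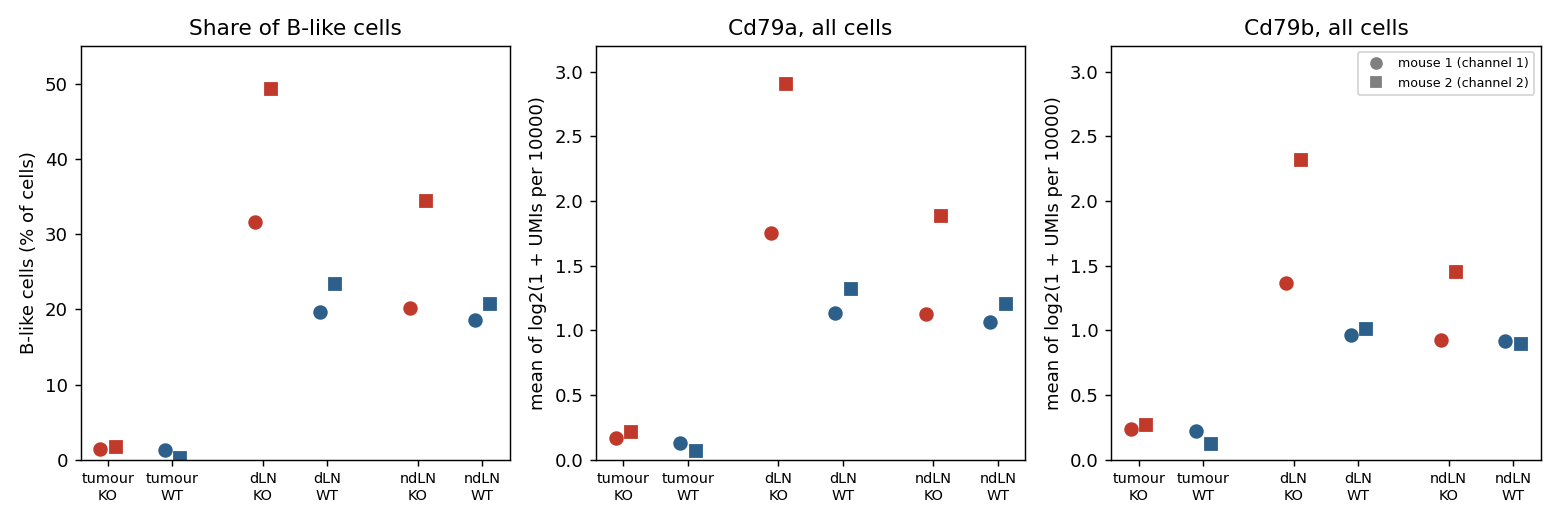
Share of B-like cells (left, in % of cells) and mean over all cells of log2(1 + UMIs per 10000) for Cd79a (middle) and Cd79b (right) in the 12 samples, with circles for mouse 1 and squares for mouse 2 of each genotype. KO2 dLN is highest in all 3 plots, at 49.3% B-like cells, 2.90 for Cd79a and 2.32 for Cd79b, and tumours are lowest.

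Outside B-like cells the members were low, and in most classes the pair did not keep the balance it has in B-like cells. Non-B cells held 2063 of the Cd79a UMIs (5.29%) and 2826 of the Cd79b UMIs (15.4%) of the series, and B-like cells held 84.2% and 70.7%. In dLN, non-B cells averaged 0.473% and 0.349% of the B-like Cd79a level in KO1 and KO2, against 0.303% and 0.271% in WT1 and WT2. For Cd79b in dLN the same ratio was 1.55% and 1.75% in KO1 and KO2, against 1.55% and 1.17% in WT1 and WT2. Over the 9 samples with at least 20 B-like cells it ranged from 0.200% to 0.509% for Cd79a and from 1.17% to 1.81% for Cd79b, so that in each of them the non-B level of Cd79b was the larger fraction of its B-like level.

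The balance is given as the share of Cd79a among the UMIs of the pair, which compares cell classes and not the levels of the genes. In B-like cells of the nodes it was 71.6% (95% exact interval 71.2 to 72.0%) and in those of tumours 74.2% (71.5 to 76.8%). Cluster 26 was close to this, at 73.2% in the nodes (70.1 to 76.2%). CD8 T-like cells of the nodes were at 14.3% (10.6 to 18.8%) and CD4 T-like cells at 19.7% (11.2 to 30.9%). Between these stood cDC2-like cells of the nodes at 36.2% (31.7 to 40.8%), plasmacytoid DC-like cells of the nodes at 39.7% (34.9 to 44.7%) and macrophage-like cells of tumours at 42.2% (40.2 to 44.3%). The intervals of mature DC-like cells of the nodes, at 67.5% (59.8 to 74.5%), and cDC1-like cells of tumours, at 78% (64.0 to 88.5%), overlapped the B-like ones. These values rest on few cells. Of the Cd79a UMIs, 83.0% lay in 8 of 817 mature DC-like cells. All 39 of the cDC1-like cells, beside 11 Cd79b UMIs, lay in 2 of 76. Limited to cells with under 5 UMIs of each gene, mature DC-like cells were at 46.9% (29.1 to 65.3%). Under that limit, cDC1-like cells of tumours held 0 Cd79a and 5 Cd79b UMIs. CD8 T-like cells of tumours, with 21 and 18 UMIs, were at 53.8% (37.2 to 69.9%), but 81.0% of their Cd79a UMIs lay in 1 of 183 cells. Without that cell they held 4 and 12 UMIs, at 25% (7.27 to 52.4%). CD8 T-like cells of the nodes under the same limit were at 8.06% (5.12 to 11.9%), so the intervals overlapped. The order of the classes is a description, and the intervals are of pooled UMIs, not of mice.

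**Figure D3:**
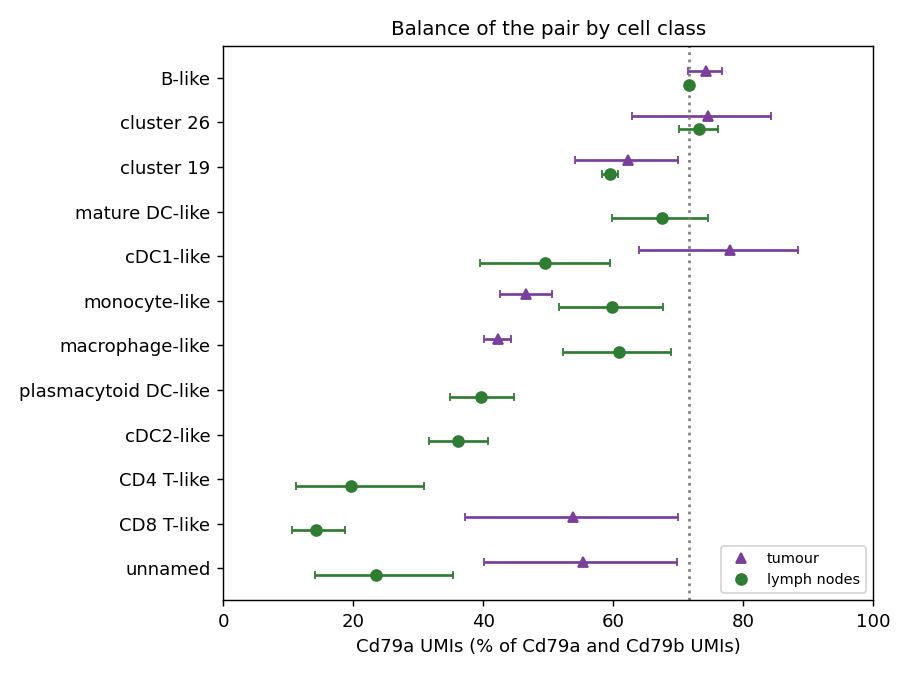
Cd79a UMIs as a percentage of the UMIs of Cd79a and Cd79b by cell class, for tumours (triangles) and lymph nodes (circles), with 95% exact binomial intervals; classes with fewer than 30 UMIs of the pair are left out, and the dotted line is the B-like value in the nodes, 71.6%. CD8 T-like cells of the nodes (14.3%) lie furthest below that line, and mature DC-like cells (67.5%) are near it.

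Plasmacytoid DC-like cells, the interferon-producing DC marked by Siglech, averaged 0.795 Cd79b UMIs per 10000 in 315 cells of the nodes, and 43.5% of them had a Cd79b UMI. Small classes of the nodes averaged more, at 1.46 in 52 monocyte-like cells, 1.31 in 21 macrophage-like cells, 1.53 in 8 neutrophil-like cells and 3.30 in 2 regulatory T-like cells. These means rest on few cells: 67.2% of the Cd79b UMIs lay in 4 monocyte-like cells, 75% in 3 macrophage-like cells and 100% in 1 neutrophil-like cell. The regulatory T-like value is of 2 UMIs. By sample the Cd79b level of plasmacytoid DC-like cells was 0.666 and 0.840 in KO1 and KO2 dLN, against 0.665 and 0.992 in WT1 and WT2 dLN. It was 0.802 and 1.03 in KO1 and KO2 ndLN, against 0.790 and 0.687 in WT1 and WT2 ndLN. The level was thus seen in all 8 node samples, without a common order of the genotypes. They held 240 Cd79b UMIs beside 158 Cd79a UMIs; at the B-like ratio of the nodes, 158 Cd79a UMIs would go with 62.7 Cd79b UMIs. Of their Cd79a UMIs, 98.7% lay in 8 cells with 5 or more, whereas 104 of their cells had 1 Cd79b UMI and 25 had 2 to 4.

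Other classes had a Cd79b UMI more often than a Cd79a UMI, mature DC-like cells only slightly. In cDC2-like cells of the nodes 31.1% had a Cd79b UMI and 3.48% a Cd79a UMI, in CD8 T-like cells 11.97% and 1.29%, in CD4 T-like cells 3.25% and 0.696%, and in mature DC-like cells 3.18% and 2.57%. In tumours 27.9% of 1998 macrophage-like cells had a Cd79b UMI and 5.41% a Cd79a UMI, and 12.4% and 2.79% of 1399 monocyte-like cells did. These shares depend on depth: median UMIs per cell were 8691 in plasmacytoid DC-like cells, 9674 in cDC2-like cells, 5343 in CD8 T-like cells, 4002 in CD4 T-like cells and 7164 in mature DC-like cells of the nodes, and 23003.5 in macrophage-like cells of tumours.

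After thinning every cell to 1000 UMIs, which left out 107 cells, of them 28 B-like, a Cd79b UMI remained in 78.1% of B-like cells of the nodes. The share was 7.35% in plasmacytoid DC-like cells, 5.52% in cDC2-like cells, 2.32% in CD8 T-like cells, 1.17% in CD4 T-like cells and 0.499% in mature DC-like cells of the nodes. In macrophage-like cells of tumours it was 2.25%, much less than the 27.9% before thinning. Mature DC-like cells, which are not known for either gene, are given for comparison; whether their share is the background of the other classes was not tested. For Cd79a the thinned shares were 97.6% in B-like cells, 2.24% in plasmacytoid DC-like, 2.17% in cDC2-like, 0.324% in CD8 T-like and 0.749% in mature DC-like cells of the nodes.

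Leaving out cells with 5 or more UMIs of either gene, a limit chosen after the values were seen and set on the members themselves, gives a description of the low cells alone. In the 305 such plasmacytoid DC-like cells of the nodes Cd79b averaged 0.626 UMIs per 10000 and Cd79a 0.0409, with 158 and 2 UMIs. In 503 cDC2-like cells of the nodes there were 202 and 8 UMIs of Cd79b and Cd79a, in 1851 CD8 T-like cells 251 and 22, and in 1918 macrophage-like cells of tumours 764 and 54. In 808 mature DC-like cells of the nodes there were 17 and 15. How far droplets with 2 cells or free RNA enter these values was not tested, and no doublet caller was run.

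**Figure D4:**
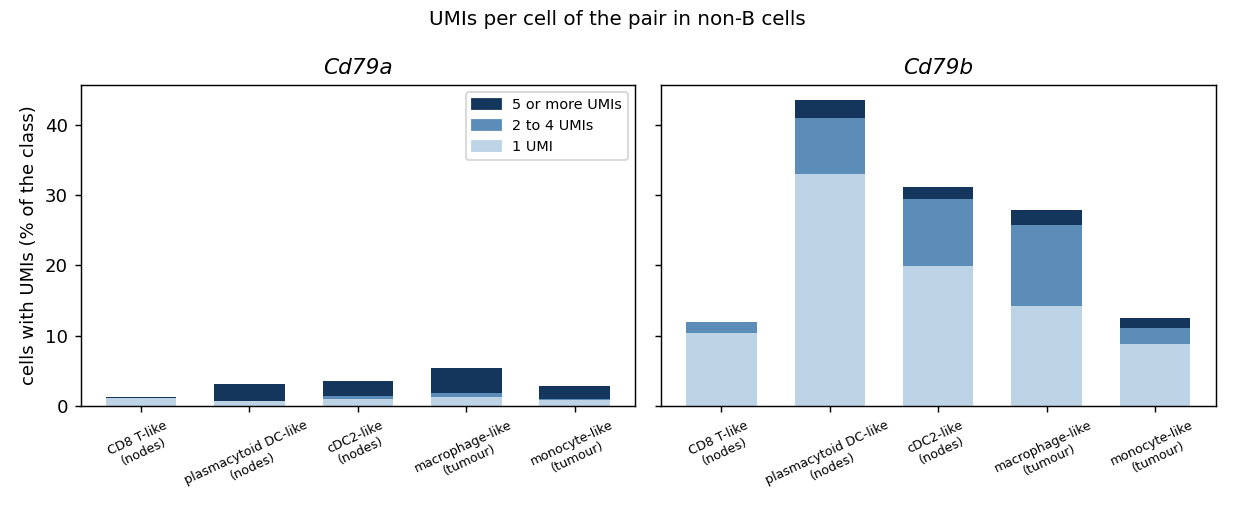
Percentage of cells of 5 non-B classes with 1 UMI, 2 to 4 UMIs and 5 or more UMIs of Cd79a (left) and Cd79b (right); bars are stacked. Most plasmacytoid DC-like cells with a Cd79b UMI hold 1 (104 cells), whereas most of those with Cd79a UMIs hold 5 or more (8 cells).

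Between genotypes, non-B cells of dLN averaged 0.260 and 0.341 Cd79b UMIs per 10000 in KO1 and KO2, against 0.254 and 0.180 in WT1 and WT2. The genotypes did not overlap, though KO1 and WT1 were close. KO minus WT was 0.08 on the log2 scale (SE 0.0270, adjusted p = 0.142 by limma), beside 4.37% of 9059 genes that passed, and the within-channel differences were 0.02 and 0.13. With log2 taken of the summed UMIs it was 0.20 and passed (adjusted p = 0.0381 by limma), the lowest of the 13 alternatives, which reached up to 0.655. Plasmacytoid DC-like cells made up 6.55% and 8.94% of non-B cells in KO1 and KO2 dLN, against 5.26% and 3.40% in WT1 and WT2 dLN. The makeup of non-B cells differed more in other classes: cDC2-like cells, which held 25.2% of the non-B Cd79b UMIs of the nodes beside 21.2% in plasmacytoid DC-like cells, made up 16.9% and 17.3% in KO1 and KO2 dLN, against 6.49% and 3.40% in WT1 and WT2 dLN. Mature DC-like cells made up 6.40% and 3.58% in KO1 and KO2 dLN, against 25.1% and 20.9% in WT1 and WT2 dLN. Of the 7 plasmacytoid DC markers 5 were tested in non-B cells of dLN and all 5 rose in KO, with a median of 0.29, and 1 to 4 of the 5 passed with a mouse left out; the part of these markers and of the makeup in the Cd79b value was not tested.

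In non-B cells of tumours Cd79b averaged 0.222 and 0.274 in KO1 and KO2, against 0.203 and 0.122 in WT1 and WT2. KO minus WT was 0.05 (SE 0.0270, adjusted p = 0.833 by limma), beside 1.02% of genes that passed. In ndLN it averaged 0.247 and 0.275 in KO1 and KO2, against 0.291 and 0.210 in WT1 and WT2, with a difference of 0.03 (SE 0.0270, adjusted p = 0.822 by limma). There 0% of genes passed by limma, with 1042 at an unadjusted p under 0.05, and 3 passed by limma-voom. The KO minus WT difference of Cd79b in non-B cells was not shown to differ between dLN and ndLN (adjusted p = 0.799) or between tumour and dLN (adjusted p = 0.830), by limma, nor with the mouse as a term (adjusted p = 0.497 and 0.643). Of the signalling list, Cd72 (0.48, adjusted p = 0.0454) and Cd81 (0.48, adjusted p = 0.0338) rose in KO non-B cells of tumours, where 5 of 6 macrophage markers rose as well; their part in this was not tested. Neither Cd72 nor Cd81, and 0 of the 5 macrophage markers, passed by limma-voom or on summed UMIs, and neither gene passed without KO1 or without KO2, nor Cd72 without WT2.

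Between tissues, non-B cells had 0.205 ± 0.0633 Cd79b UMIs per 10000 in tumour and 0.259 ± 0.0657 in dLN (SD, n = 4 mice each). Tumour minus dLN was -0.02 (SE 0.0137, adjusted p = 0.278 by limma) in a comparison where 68% of genes passed, and it passed where B cells were called by markers in place of clusters (-0.05, adjusted p = 0.0418). Among other genes of the pathway, 11 of 17 tested rose in tumour and 4 fell, led by Fcgr2b (2.11), Cd81 (1.47), Lyn (1.30) and Cd72 (1.16). Of 10 transcription factors tested, 5 rose, led by Irf8 (0.89) and Xbp1 (0.81), and 5 fell, led by Foxo1 (-0.69) and Bach2 (-0.22). Irf8 turned here too, by limma-voom (-0.70, adjusted p = 0.00222) and on summed UMIs (-0.57, adjusted p = 0.00753, limma). Between dLN and ndLN, Cd79b of non-B cells differed by 0.01 (SE 0.0174, adjusted p = 0.921 by limma), where 0% of genes passed, with 540 at an unadjusted p under 0.05, and 0 passed by limma-voom.

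Cd79a did not reach the 5% of cells needed for a test in non-B cells. Without that filter, its KO minus WT difference was 0.04 in tumour (adjusted p = 0.0552), 0.03 in dLN (adjusted p = 0.112) and -0.02 in ndLN (adjusted p = 0.484), by limma, where 0.783%, 3.73% and 0% of 12638 genes passed. Tumour minus dLN was 0.03 (adjusted p = 0.0175 by limma), where 61% of genes passed. Jchain was below the filter in all classes tested, and without it passed in 1 of 13 comparisons, tumour minus dLN over all cells (-0.07, adjusted p = 0.0101 by limma), where 64.7% of genes passed.

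Jchain was concentrated in 1 cluster. Of all its UMIs, 17633 (99.0%) were in the 118 cells of cluster 19, 121 in non-B cells, 61 in B-like cells and 1 in cluster 26. In B-like cells of the nodes 1.56% had a Jchain UMI, beside 1.90% in plasmacytoid DC-like cells and 0.612% in mature DC-like cells of the nodes. These shares depend on depth, which differed between the classes. After thinning, as for Cd79b above, they were 0.572%, 0.958% and 0.125% in the same order. Even before thinning they rest on only 36, 6 and 5 cells. In dLN Jchain averaged 0.257 UMIs per 10000 of B-like cells in KO1 and 0.0726 in KO2, against 0 in WT1 and 0.0677 in WT2. The value of KO1 rests on 25 UMIs, 22 of them in 1 cell. For WT1 dLN, no UMI allows up to 0.0349 per 10000 (3 counts), and for the 51 B-like cells of tumours, where none was found either, up to 0.154.

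Cluster 19 held Jchain together with the receptor pair. Over its 111 node cells Cd79a averaged 22.4 and Cd79b 15.4 UMIs per 10000, against 43.0 and 16.97 in B-like cells of the nodes. Cd79a was thus lower beside an almost equal Cd79b, and the share of Cd79a in the pair was 59.5% (58.2 to 60.8%), against 71.6% in B-like cells. The median cell of cluster 19 held 13767 UMIs, against 3054.5 in B-like cells of the nodes. Ms4a1 was found in 86.4% of its cells, and Mzb1, a chaperone of antibody assembly, in 97.5%. Since Jchain led the cluster, its levels here are descriptions.

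Jchain varied more widely within cluster 19 than the pair did. It had no UMI in 15 cells, a median of 10.5 UMIs per 10000 over all 118 cells, a 90th percentile of 503 and a maximum of 3552. The 18 cells at 100 or more per 10000, a range set after the values were seen, held 89.3% of the cluster's Jchain UMIs, and 3 cells lay between 50 and 200. In those 18 cells the median was 698 for Jchain, 6.43 for Cd79a and 7.26 for Cd79b. In the 85 cells above 0 and under 100 it was 9.92 for Jchain, 22.4 for Cd79a and 15.5 for Cd79b. In the 15 cells without Jchain it was 24.5 for Cd79a and 8.46 for Cd79b.

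The ranges also differed in genes that did not set them. Sdc1, the plasma cell surface marker CD138, had a UMI in 15 of 18 cells at 100 or more, in 2 of 85 cells below and in 0 of 15 without Jchain. Rgs13, a regulator of G protein signalling found in germinal centre B cells, had a UMI in 1 of 18, 55 of 85 and 2 of 15 cells. Xbp1, the factor of the secretory programme, had a median of 45.0 UMIs per 10000 in the 18 cells and 0.993 in the 85. Ms4a1 was found in 3 of the 18 cells and in all 85 below, and Pax5, which maintains B cell identity, in 0 of 18 and 57 of 85. All these cells share clusters and libraries, so the counts carry no test.

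**Figure D5:**
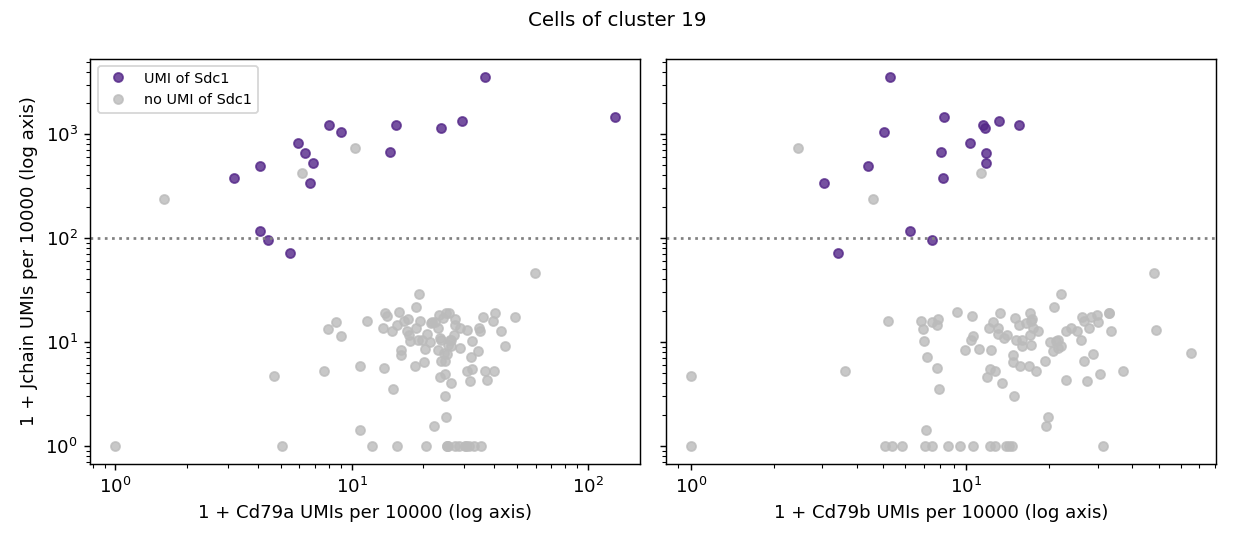
Jchain against Cd79a (left) and Cd79b (right) in the 118 cells of cluster 19, each axis 1 + UMIs per 10000 on a log scale, with colour for cells with a UMI of Sdc1 and grey for cells without; the dotted line marks 100 Jchain UMIs per 10000. The 18 cells above the line have a lower median of Cd79a (6.43) than the 85 cells with some Jchain below it (22.4), and 15 of the 18 have a UMI of Sdc1. The ranges overlap, and the cell with the highest Cd79a (129) is among the 18.

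By sample, cluster 19 had 5 cells in KO1 dLN and 57 in KO2 dLN, against 20 in WT1 dLN and 10 in WT2 dLN, or 0.491%, 3.91%, 1.75% and 0.947% of the cells of these samples. In ndLN it had 0 cells in KO1 and 3 in KO2, against 3 in WT1 and 13 in WT2. The KO mice were thus both the highest and the lowest in dLN. Cells with 100 or more Jchain UMIs per 10000 numbered 0 and 5 in KO1 and KO2 dLN, against 4 and 2 in WT1 and WT2 dLN. In ndLN they numbered 0 in KO2, against 1 and 4 in WT1 and WT2, and tumours held 1 in KO1 and 1 in WT2. With these few cells no level was compared between genotypes.

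Over the 28 clusters, the 3 genes whose log2 mean levels were most like those of Cd79a by Pearson correlation were Srpk3 (r = 0.992), Cd22 (0.991) and Ebf1 (0.991), beside 0.991 for Cd79b itself. For Cd79b they were Ms4a1 (0.991), Srpk3 (0.989) and Tnfrsf13c (0.987). For Jchain they included Nuggc (0.999) and Rgs13 (0.999), and Jchain had r = 0.434 with Cd79a and 0.498 with Cd79b. These values are descriptions over clusters of the same libraries: those of the pair rest on a few B cell clusters, and those of Jchain on cluster 19 alone.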

How the data were processed

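The authors deposited one matrix on a natural log scale, in which each entry is the gene's UMI count scaled to 10000 per cell with 1 added before the log, with the tissue, mouse and genotype of each cell; Cell Ranger 3.0.2 and mm10 are named in the submitters' processing notes. How tags were assigned and cells, genes and doublets filtered is not given in the sources used here. Back-transformed values summed to 10000 per cell and were whole UMIs within 0.01 in 100% of entries, so UMIs were recovered; cells held 687 to 131217.

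All 12458 cells were kept and no doublet caller was run. Cells were clustered with scanpy 1.11.5 and leidenalg 0.10.2 (2000 variable genes without the members, 30 components, 15 neighbours, resolution 1, seed 0). Rebuilt names may differ from the study's. Members and lists were chosen with earlier results of these data known; cluster names, the setting aside of cluster 26, the split by cluster and the ranges of 5 UMIs and 100 Jchain UMIs were chosen after the values were seen. Means per sample of log2(1 + UMIs per 10000) were tested with limma 3.58.1 (R 4.3.3, trend), where genotypes and tissues shared 1 estimate of the spread within a cell class, and a mouse term was added between tissues, but for differences of differences only as an alternative; this scale understates the change of low genes. Scripts were tested on simulated data. P values are two-sided. Of genes outside the 3 members, those of the signalling and transcription factor lists that passed are named, and otherwise counts are given. Alternatives were another scale, a pseudocount of 0.1, no filter, limma-voom with TMM, each mouse left out, the channel as a term, other B cell calls, thinning to 1000 UMIs and mixed droplets left out. Values of some genes of the lists are not reported here.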

Additional observations from a re-analysis of the deposited data

How the results depend on the processing

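The 21 member differences tested were recomputed under 237 settings in all; 214 kept direction and side of the threshold, 14 turned direction, 9 newly passed and 0 passes were lost. Turned, with none past the threshold: in B-like cells Cd79b of dLN KO minus WT in cluster 6 alone (-0.094), Cd79a of ndLN KO minus WT in cluster 6 alone (-0.090), and Cd79a of dLN minus ndLN in cluster 0 alone (-0.014), cluster 6 alone (-0.011), without mixed droplets (-0.0093) and thinned (-0.049). The split by cluster was added after seeing the data. In non-B cells, Cd79b of dLN minus ndLN turned by limma-voom (-0.045) and without mixed droplets (-0.00185), and of tumour minus dLN with a pseudocount of 0.1 (0.036); that last pseudocount shifted the median of all genes by 0.23. The cause was not tested.

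Newly passed were Cd79a (1.10) and Cd79b (0.86) of dLN KO minus WT over all cells with the replicate block of droplet channel (adjusted p = 0.0201 and 0.0324, limma), Cd79b of non-B dLN KO minus WT on summed UMIs (0.20) and of tumour minus dLN non-B cells with B cells called by markers (-0.050). The other 5 were passes over all cells with a mouse left out, given beside those results. The block changed no other member's call.

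Leaving out each mouse gave, for KO minus WT in B-like cells, -0.013 to 0.31 (Cd79b, dLN) and -0.16 to 0.27 (Cd79b, ndLN); for dLN minus ndLN, -0.032 to 0.043 (Cd79a, B-like) and -0.0072 to 0.021 (Cd79b, non-B); for KO minus WT over all cells, 0.52 to 1.67 (Cd79a) and 0.38 to 1.33 (Cd79b) in dLN, and -0.011 to 0.75 (Cd79a) and 0.019 to 0.55 (Cd79b) in ndLN. A group left with 1 mouse is assumed to vary like the others. Thinning gave no value for Cd79b in non-B cells, below the 5% filter.

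Counts of genes that passed moved by over 1.5 times: KO minus WT in B-like dLN 1 (0 to 7 over alternatives) and ndLN 0 (0 to 32), non-B tumour 92 (10 to 248), dLN 396 (63 to 713) and ndLN 0 (0 to 272), all cells of tumour 71 (7 to 189), dLN 232 (0 to 490) and ndLN 0 (0 to 100), dLN minus ndLN B-like 0 (0 to 3), and tumour minus dLN non-B 6157 (1602 to 7707). The difference in B-like share stayed above 0, at 10.2 to 27.8 percentage points in dLN, 0.559 to 14.8 in ndLN and 0.305 to 2.24 in tumour. Depth differed between classes, with a median of 3054.5 UMIs in B-like cells of the nodes and 23003.5 in macrophage-like cells of tumours, so shares of cells with a UMI can be compared between classes only after thinning. The mouse as a term, chosen after seeing the data, changed no call of the 8 differences of differences.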
